A study of Mus musculus with 8 samples.

Results

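Betaine reaches the liver cell by uptake from the blood or is made there from choline, and it is broken down by the stepwise loss of its methyl groups. The genes described here are the 7 genes of these steps, Slc6a12, Chdh, Aldh7a1, Bhmt, Bhmt2, Dmgdh and Sardh. They were chosen by symbol from what their products do, with earlier results of these data known. All 7 had an entry in every RNA-seq and every Ribo-seq library, among 24079 symbols that the 2 assays share. The question put to them was whether their mRNA, their ribosome-protected fragments (RPFs) or the ratio of both differed between livers of mice that drank betaine and livers of mice that did not.

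The livers came from C57BL/6 mice, male by the methods of the study, fed from week 8 of life on food in which fat gave 45% of the calories. The HF group had plain water, and the HB group had water with 2% (w/v) betaine. Livers were taken at 25 weeks of age. The methods give 17 weeks on the diet and the treatment label gives 25. No group on a standard diet was analysed here, so each comparison is between HB and HF on the same fat. Each assay had 2 libraries per group. The methods state that 2 mice per group were picked for a body weight near the mean of 6, whereas the labels describe pooled RNA. The libraries are therefore counted as libraries and not as mice, and a p-value measures the spread between libraries, which may be technical. RNA-seq counted polyadenylated mRNA. Ribo-seq counted the RPFs, the pieces of mRNA of about 28 bases that stay whole under a ribosome when RNase digests the rest. They are read as mRNA under translation. The study reports that a part of them lay outside the coding sequence, mainly in the untranslated region behind it. This part was larger in HF than in HB, and the RPF and TE values below may include such fragments. The ratio of RPF to mRNA is called translation efficiency (TE).

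In the inner mitochondrial membrane, choline dehydrogenase (CHDH) oxidises choline to betaine aldehyde, which ALDH7A1 and other aldehyde dehydrogenases oxidise to betaine. Betaine-homocysteine methyltransferase (BHMT) moves a methyl group of betaine to homocysteine, which gives methionine and dimethylglycine. Its neighbour BHMT2 also methylates homocysteine but takes the methyl group from S-methylmethionine. The mitochondrial flavoenzymes DMGDH and SARDH then turn dimethylglycine into sarcosine and sarcosine into glycine, and pass electrons to the electron transfer flavoprotein. SLC6A12 carries betaine and GABA across the plasma membrane and is known from the kidney as a transporter of osmolytes. Liver and kidney are the main sites of this pathway in mammals.

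Positions are given on GRCm38, the assembly also called mm10, from GENCODE M21, and all 7 are protein-coding genes. Slc6a12 (ENSMUSG00000030109) lies at chr6:121343076-121365775 on the plus strand. Chdh (ENSMUSG00000015970) lies at chr14:30009023-30040527 on the plus strand. Aldh7a1 (ENSMUSG00000053644) lies at chr18:56509687-56572951 and Sardh (ENSMUSG00000009614) at chr2:27188393-27248337, both on the minus strand.

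The others lie side by side on chromosome 13. Bhmt (ENSMUSG00000074768) spans chr13:93616675-93637961 and Bhmt2 (ENSMUSG00000042118) spans chr13:93655720-93674302, both on the minus strand. Dmgdh (ENSMUSG00000042102) spans chr13:93674433-93752833 on the plus strand.

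Bhmt2 and Dmgdh are transcribed away from each other. Their start sites in RefSeq, at positions 93674302 and 93674436, are 134 bases apart, so the RefSeq promoter window of 300 bases around the start of Dmgdh holds both starts. It is shown because both genes' mRNA is compared below. The sequence is that of RefSeq on GRCm38.p6, plus strand, chr13:93674186-93674485, with the 133 bases between the start sites in capitals:
Dmgdh and Bhmt2: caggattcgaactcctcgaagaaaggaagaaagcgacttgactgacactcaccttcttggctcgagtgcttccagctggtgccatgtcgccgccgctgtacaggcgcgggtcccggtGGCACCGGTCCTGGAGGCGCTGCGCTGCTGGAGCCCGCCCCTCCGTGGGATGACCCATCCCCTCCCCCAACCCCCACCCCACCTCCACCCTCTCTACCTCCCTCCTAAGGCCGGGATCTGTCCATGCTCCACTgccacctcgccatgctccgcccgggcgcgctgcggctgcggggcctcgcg

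This window holds 25 CpG dinucleotides and that of Bhmt2 holds 26, against a median of 7 over 32851 RefSeq windows of mouse genes. The first window of Chdh also holds 26, and its other windows hold 4 each. The windows of Bhmt with 8, of Sardh with 4 and the 5 of Slc6a12 with 2 to 5 lie near or below that median. None of these windows holds the letters TATAAA on either strand, which 13.6% of all windows do. The letters TGGAAA, with which the binding site of the tonicity factor NFAT5 begins, were found on either strand in the window of Bhmt, in 1 of the 3 windows of Chdh and in 1 of the 5 of Slc6a12, and 21.4% of all windows hold them.

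Bhmt and Bhmt2 are close copies, and this bears on how their reads can be told apart. Over 1089 aligned bases of coding sequence 816 were identical, or 74.9%. The longest stretch that both transcripts share runs over 59 bases of the coding sequence in exon 7 of 8 in each gene, at chr13:93620181-93620239 in Bhmt and chr13:93662401-93662459 in Bhmt2. It is shown in capitals, from GENCODE, with 15 bases on either side:
Bhmt: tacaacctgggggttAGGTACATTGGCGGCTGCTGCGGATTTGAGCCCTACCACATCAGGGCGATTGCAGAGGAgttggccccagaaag
Bhmt2: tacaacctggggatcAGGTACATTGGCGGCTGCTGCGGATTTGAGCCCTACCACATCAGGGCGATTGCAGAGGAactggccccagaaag

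A fragment of 28 bases, the size selected for Ribo-seq, cannot be placed within these capitals. Such fragments are few for this pair: 49 of the 2463 windows of 28 bases in the Bhmt transcript, or 1.99%, also occur in Bhmt2. Copies elsewhere weigh more. Of the same windows, 1590 (64.6%) occur in Gm5096, a gene model on chromosome 18, and 921 (37.4%) in the processed pseudogene Bhmt-ps1 on chromosome 4. For RNA-seq the labels give 50 cycles and the methods 100. At 50 bases 59.6% of the windows of Bhmt were shared with some other gene, and sharing at 100 bases was not computed. The values of Bhmt are therefore uncertain to the extent that the mapping could have split its reads, and neither copy was analysed here. For Chdh, Aldh7a1, Dmgdh, Sardh and Slc6a12 at most 3.20% of the windows of 28 bases were shared with another gene. For Bhmt2 it was 12.95% at 28 bases, with 70 genes, and 4.96% at 50 bases. The kit used for RNA-seq does not mark the strand. Exons of Chdh, Aldh7a1, Dmgdh, Bhmt and Sardh overlap exons of genes on the opposite strand, so reads of the pairs cannot be told apart there.

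The RNA-seq libraries held 11661207 to 22543471 reads and the Ribo-seq libraries 141890 to 1056546, as recovered from the steps of the RPKM values. Both HB libraries of Ribo-seq, at 257086 and 141890 reads, were shallower than both HF libraries, at 387980 and 1056546. In RNA-seq the order was the other way, with 22543471 and 18082686 reads in HB and 11661207 and 11824128 in HF. Depth thus goes with the group in both assays. All 10 hepatocyte markers looked up were above 0 in every library of both assays. The summed mRNA level of 8 pericentral hepatocyte markers was 3362 and 3496 RPKM in HF and 5683 and 5832 in HB, with a median log2 change of 0.10 and 0 called. Their summed RPF level was 4260.1 and 5551 in HF and 3878 and 4155 in HB. The summed mRNA level of 8 periportal markers was 5854 and 4436 in HF and 5763 and 5523 in HB. Markers of red blood cells summed to 260 and 216 RPKM in HF and 409 and 1047 in HB in mRNA, with a median log2 change of 1.34 and 1 of 4 tested called higher, and to 491 and 309 in HF and 1170.0 and 156 in HB in RPF. Of 7 endothelial markers, 0 were called in mRNA and 2 were called lower in RPF. Markers of stellate cells summed in mRNA to 34.1 and 34.0 in HF and 71.9 and 43.3 in HB. For the stellate list the median log2 change in mRNA was -0.02, and the summed RPF level was 149 and 122 RPKM in HF and 97.0 and 95.9 in HB. The part of these differences in the values below was not tested. In whole liver, fewer cells of a type and less RNA per cell cannot be told apart.

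The level of a gene is given in RPKM, read numbers corrected for the length of the gene and for library size. This allows mRNA levels to be compared between genes. In RPF the length used reaches beyond the coding sequence, whose share of it runs from 31.8% (Chdh) to 87.5% (Dmgdh). RPF levels and ratios of RPF to mRNA of different genes are therefore not on the same scale. In mRNA, Bhmt was far above the other members, with a mean of 1252 ± 722 RPKM in HF and 1362 ± 116 in HB (SD, n = 2), and it ranked 48 among 10687 genes tested. Sardh, Bhmt2, Dmgdh and Aldh7a1 followed in HF with means of 147, 121, 112 and 95.6 RPKM, and the values of neighbours in this order overlapped. Chdh and Slc6a12 were lowest, with 34.7 and 29.5 RPKM. In HB the order behind Bhmt was Sardh, Aldh7a1, Dmgdh, Bhmt2, Chdh and Slc6a12, since Aldh7a1 had moved up and Bhmt2 down. Among these, Sardh overlapped with Aldh7a1 and Chdh with Slc6a12. In RPF, Bhmt again led, with 877 ± 644 RPKM in HF and 706 ± 388 in HB (SD, n = 2). By the group means it was followed in both groups by Sardh, Dmgdh, Aldh7a1, Bhmt2, Chdh and Slc6a12. Sardh overlapped with Dmgdh in both groups, and in HB Aldh7a1 overlapped with Bhmt2 and Chdh with Slc6a12. In HB library 2, Bhmt2 was above Aldh7a1 and Slc6a12 above Chdh. The 7 genes together held 0.318% to 0.562% of the reads of an RNA-seq library and 0.245% to 0.498% of those of a Ribo-seq library.

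**Figure D1:**
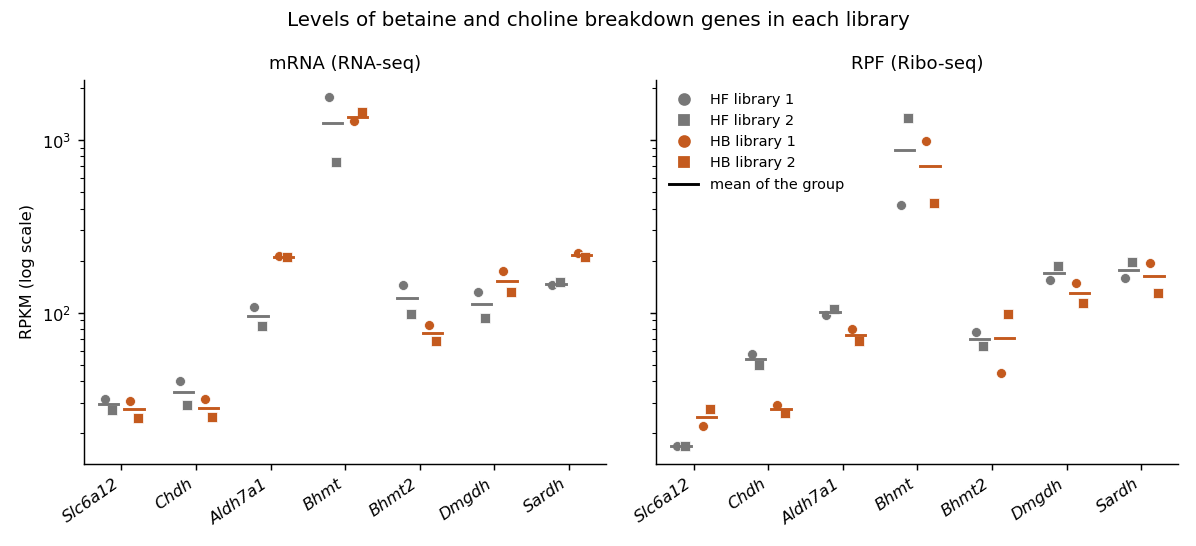
RPKM on a log axis of the 7 genes in mRNA (left) and RPF (right), with a point for each library and a bar for the mean of the group of 2. Bhmt lies above all others in every library, and the HB values of Aldh7a1 lie above its HF values in mRNA and below them in RPF.

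Changes were fitted with limma on log2(RPKM + 1) over all genes with a mean of at least 1 RPKM, as HB minus HF. On this scale the median gene fell by 0.19 in mRNA, 0.43 in RPF and 0.35 in TE. A gene was called by the thresholds of the study, which are a log2 change beyond 1 with an unadjusted p under 0.001 in mRNA, beyond 1 with p under 0.05 in RPF, and beyond 2 with p under 0.05 in TE. By these, 2.3% of all tested genes were called higher and 6.56% lower in mRNA, 1.58% higher and 7.86% lower in RPF, and 1.49% higher and 4.6% lower in TE. All 7 members were tested in each measure and 0 of 7 were called in any. At an unadjusted p under 0.05 there was 1 member in each measure, Aldh7a1 in mRNA, Chdh in RPF and Aldh7a1 in TE. Of all tested genes, 40.5% were under this p in mRNA, 10% in RPF and 12.2% in TE, so 1 of 7 is below the share of all genes in mRNA and near it in RPF and TE. With voom on the recovered reads in mRNA and RPF, and with the interaction of assay and group in TE, the calls were also 0. At an adjusted p under 0.05 with a log2 change beyond 1, Aldh7a1 passed in mRNA and no member in RPF or TE, where no gene of the whole table passed. In mRNA 5.01% of all tested genes passed this threshold as higher and 12.7% as lower.

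Both HB libraries lay above both HF libraries for 2 members in mRNA, Aldh7a1 and Sardh, and below them for 1, Bhmt2, while 24.8% and 43.3% of all tested genes did so. In RPF the groups were apart upwards for Slc6a12 alone and downwards for 3 members, Chdh, Aldh7a1 and Dmgdh, against 9.07% and 33.2% of all genes. In TE they were apart upwards for 1 member, Slc6a12, and downwards for 4, Chdh, Aldh7a1, Dmgdh and Sardh, against 14% and 31.7%. The median change of the 7 members was 0.25 in mRNA, -0.20 in RPF and -0.64 in TE.

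**Figure D2:**
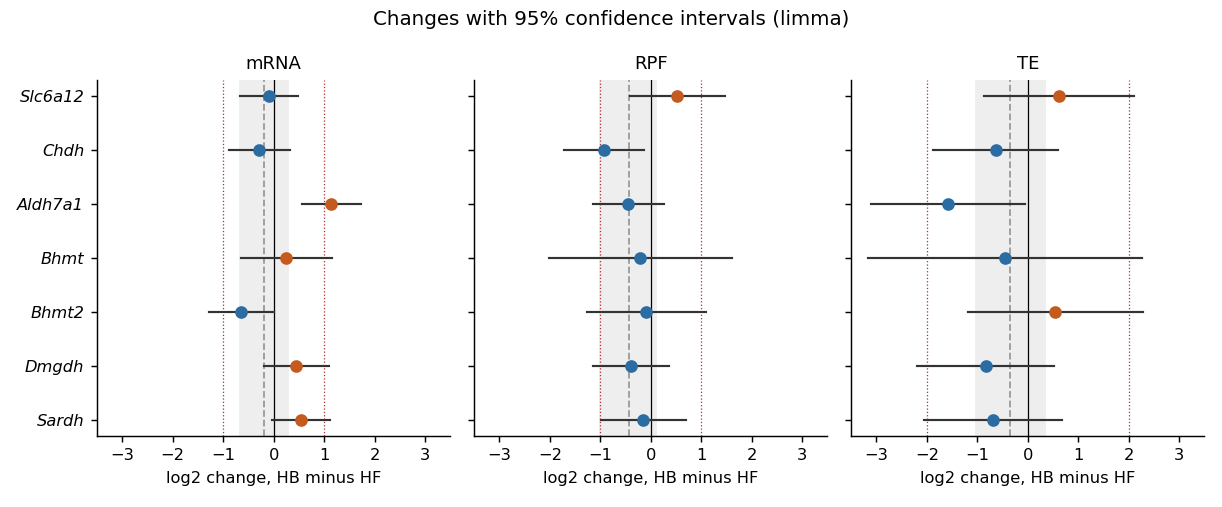
Log2 change of the 7 genes, HB minus HF, in mRNA, RPF and TE, with limma's 95% confidence interval as a line (orange point above 0, blue below). The dashed line is the median and the grey band the middle 50% of all tested genes, the dotted lines are the fold thresholds, and only the intervals of Aldh7a1 in mRNA and TE and of Chdh in RPF lie clear of 0.

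Uptake. Slc6a12 mRNA was 31.7 and 27.3 RPKM in the HF libraries and 30.7 and 24.6 in the HB libraries. The groups overlapped, and the log2 change was -0.09 (SE 0.25, 95% confidence interval -0.66 to 0.48), which became 0.18 when the libraries were shifted to a common median. Its RPF level was 16.9 and 16.9 RPKM in HF and 22.1 and 27.7 in HB. Both HB values were higher, yet they rest on 13 and 9 reads beside 15 and 41 in HF, and the counting interval of the higher one runs from 12.7 to 52.5 RPKM. The log2 change in RPF was 0.52 (SE 0.36, adjusted p = 0.649 by limma), and -0.31 when the RPKM of each library were scaled to a common sum. For Slc6a12 the ratio of RPF to mRNA was 0.532 and 0.620 in HF and 0.718 and 1.12 in HB, a log2 change of 0.62 (SE 0.61, 95% confidence interval -0.87 to 2.10). It was 0.30 without HB library 2 and -0.18 with a common sum. Slc6a13, its neighbour on chromosome 6 and a transporter of GABA and taurine, stood at 94.8 to 115 RPKM in mRNA, above Slc6a12 in every library. For Slc6a13 the log2 change in mRNA was -0.18 (adjusted p = 0.620 by limma).

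Synthesis from choline. Aldh7a1 and Chdh act in sequence. Aldh7a1 mRNA was 107 and 83.6 RPKM in HF and 211 and 209 in HB. The HB libraries agreed within 1.01-fold, both above both HF libraries, and the level rose 2.21-fold on the log2(RPKM + 1) scale. The log2 change was 1.14 (SE 0.26, 95% confidence interval 0.55 to 1.73, adjusted p = 0.0139 by limma). The unadjusted p was 0.00155, so the change passed the adjusted threshold but missed the 0.001 that the study's rule asks for. Against the median gene the change was 1.33. Without HF library 2 the log2 change was 0.96 with an adjusted p of 0.13 by limma, and without a filter on low values the adjusted p was 0.0559. The unadjusted p was 0.000458 with libraries shifted to a common median (log2 change 1.41), 0.000472 with the replicate number as a block and 0.000933 with crossed numbers as a block, and the study's rule then called the gene. Phax, whose exons overlap those of Aldh7a1 on the opposite strand, was at 8.15 to 10.5 RPKM in mRNA with a log2 change of -0.16.

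The footprints of Aldh7a1 did not rise with its mRNA. In RPF it was 96.3 and 105 RPKM in HF and 80.2 and 68.1 in HB, on 116, 346, 64 and 30 reads. Both HB values were the lower ones, with a log2 change of -0.44 (SE 0.27, 95% confidence interval -1.15 to 0.27, adjusted p = 0.622 by limma). This is the change of the median gene, from which it differed by -0.01. With a common sum it was -1.31 and called lower, and with a common median -0.12. The ratio of RPF to mRNA was 0.896 and 1.26 in HF and 0.379 and 0.325 in HB. Footprints per mRNA were thus lower in both HB libraries, by 2.998-fold on the fitted scale, and they stayed lower when the library numbers were crossed (1.15 and 0.981 against 0.383 and 0.322). The log2 change in TE was -1.58 (SE 0.63, 95% confidence interval -3.11 to -0.05, adjusted p = 0.404 by limma), which lies 1.23 below the median gene. The unadjusted p was 0.0444, and over the alternatives it ranged from 0.00216 with the interaction model to 0.307 without HF library 2. With a common sum the log2 change in TE was -2.405 and the gene was called lower. The RPKM of Aldh7a1 rest on a gene length of 2911 bases in RNA-seq and 3105 in Ribo-seq, and those of Slc6a12 on 2563 and 2292. This sets the level of the ratio of either gene but not its change between groups.

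Chdh mRNA was 40.1 and 29.4 RPKM in HF and 31.6 and 24.8 in HB. The groups overlapped and the log2 change was -0.29 (SE 0.27, adjusted p = 0.452 by limma). Without HF library 1 it was -0.069 and without HF library 2 -0.50. In RPF it was 57.3 and 49.8 RPKM in HF and 29.0 and 26.3 in HB, on 125, 296, 42 and 21 reads. The HB values lay well below the HF values, and the libraries of a group agreed within 1.15-fold. The counting interval of the lower HF library starts at 44.3 RPKM and those of the HB libraries end at 39.3 and 40.2. The log2 change was -0.93 (SE 0.31, 95% confidence interval -1.72 to -0.13, adjusted p = 0.493 by limma), short of the fold threshold of 1. Against the median gene it was -0.50. The unadjusted p was 0.0307, and over the alternatives it ranged from 0.0121 with a common sum, where the log2 change was -1.78 and the gene was called lower, to 0.12 with a common median, where it was -0.60. It was 0.0816 without HF library 1 and 0.0529 without HF library 2. The ratio of RPF to mRNA of Chdh was 1.43 and 1.69 in HF and 0.920 and 1.06 in HB, a log2 change of -0.64 (SE 0.51, adjusted p = 0.637 by limma). Cacna1d, which overlaps Chdh on the opposite strand, was at 5.64 and 5.19 RPKM in HF and 2.38 and 2.87 in HB in mRNA (log2 change -0.83, adjusted p = 0.0341 by limma), and on at most 5 reads in any Ribo-seq library. Its part in the values of Chdh was not tested.

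A ratio of 2 genes within a library does not depend on how the library is scaled. In mRNA, Aldh7a1 was 2.68 and 2.84 times Chdh in HF and 6.70 and 8.45 times in HB, and in RPF 1.68 and 2.12 times in HF and 2.76 and 2.59 times in HB. The groups did not overlap in either assay. These pairs were chosen after the values were seen, and with 2 libraries per group an exact permutation test cannot give a two-sided p below 0.333.

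Methyl transfer to homocysteine. Bhmt, the main enzyme that spends betaine in the liver, showed no change that the spread of its libraries would let be seen. Its mRNA was 1762 and 741 RPKM in HF and 1280.3 and 1444 in HB. The HB libraries lay between the HF libraries, which differed 2.38-fold, and only 0.983% of all tested genes differed more between the same HF libraries. Counting error is small here, since these values rest on 18154 to 59775 reads. In RPF the same-numbered libraries were ordered the other way, with 422 and 1332 RPKM in HF and 980.4 and 432 in HB, on 339, 2915, 522 and 127 reads. Whether HF library 1 of RNA-seq and HF library 1 of Ribo-seq are from the same liver is not stated. Over 9455 genes, the differences between HF libraries 1 and 2 correlated at -0.0024 between the assays.

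The log2 change of Bhmt was 0.25 in mRNA (SE 0.40, 95% confidence interval -0.65 to 1.15) and -0.20 in RPF (SE 0.70, 95% confidence interval -2.02 to 1.61). The one in RPF turned to 0.12 with libraries shifted to a common median and was -1.08 with a common sum. Either sign was also reached by leaving out a library, with -0.37 to 0.87 in mRNA and -1.03 to 0.62 in RPF. Its ratio of RPF to mRNA was 0.239 and 1.80 in HF and 0.766 and 0.299 in HB. With crossed numbers the ratio was 0.569 and 0.756 in HF and 0.679 and 0.338 in HB, so the gap within HF depends on which libraries are set against each other. The log2 change in TE was -0.45 (SE 1.11, 95% confidence interval -3.16 to 2.25), too wide to show a change of the size seen for Aldh7a1.

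**Figure D3:**
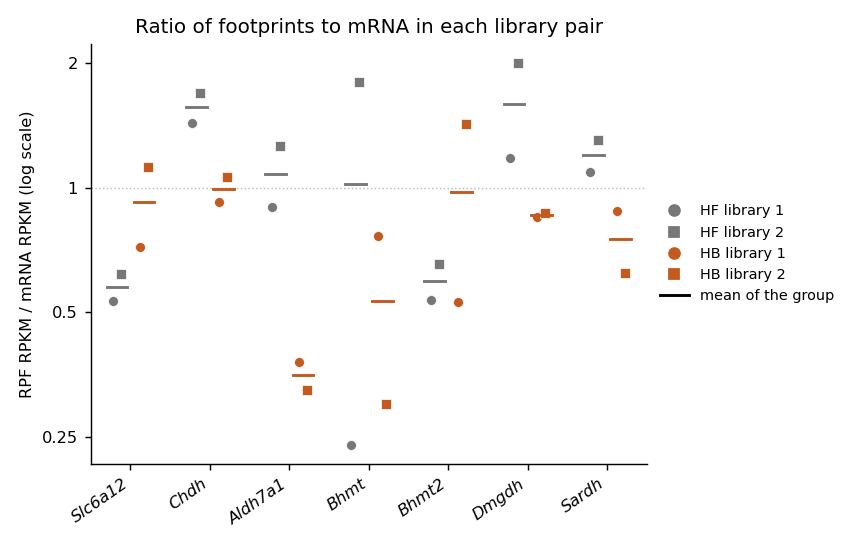
Ratio of RPF RPKM to mRNA RPKM on a log axis for the same-numbered libraries, with a bar for the mean of the group of 2. Aldh7a1 sits at 0.896 and 1.26 in HF and 0.379 and 0.325 in HB, while the HF values of Bhmt span 0.239 to 1.80.

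Bhmt2 mRNA was 145 and 97.9 RPKM in HF and 84.6 and 68.8 in HB. Both HB values were below both HF values, with a log2 change of -0.64 (SE 0.28, 95% confidence interval -1.27 to 0.0013, adjusted p = 0.124 by limma). It was -0.36 without HF library 1 and -0.92 without HF library 2. In RPF the groups overlapped, with 77.7 and 63.9 RPKM in HF and 44.7 and 97.8 in HB. The HB values rest on 24 and 29 reads. The log2 change in RPF was -0.09 (SE 0.46), and it turned to 0.24 with a common median and to 0.04 with libraries scaled to protein-coding reads. With a common sum it was -0.95. The ratio of RPF to mRNA was 0.536 and 0.652 in HF and 0.528 and 1.42 in HB, a log2 change of 0.55 (SE 0.71, adjusted p = 0.777 by limma), or -0.27 with a common sum.

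Removal of the remaining methyl groups. Dmgdh mRNA was 131 and 93.2 RPKM in HF and 174 and 131 in HB. The lower HB library was 130.99 RPKM and the higher HF library 131.50, so the groups touched, and the log2 change was 0.44 (SE 0.29, adjusted p = 0.273 by limma). Leaving out a library gave 0.20 without HF library 2 to 0.69 without HF library 1. In RPF it was 155 and 186 RPKM in HF and 148 and 114 in HB, on 179, 586, 113 and 48 reads. Both HB values were lower, with a log2 change of -0.39 (SE 0.29, adjusted p = 0.653 by limma), which is 0.04 above that of the median gene. Leaving out a library gave -0.58 to -0.20, the latter without HB library 2. With a common sum it was -1.26 and called lower, and with a common median -0.064. The ratio of RPF to mRNA was 1.18 and 2.00 in HF and 0.848 and 0.867 in HB, a log2 change of -0.83 (SE 0.56, 95% confidence interval -2.19 to 0.52), which was -0.45 without HF library 2. AW495222, whose exons overlap those of Dmgdh on the opposite strand, was at 3.70 and 3.83 RPKM in HF and 7.42 and 5.36 in HB in mRNA (log2 change 0.62, adjusted p = 0.102 by limma), and its part in the values of Dmgdh was not tested.

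Sardh mRNA was 145 and 150.1 RPKM in HF and 221 and 209 in HB. Its libraries lay within 1.04-fold of each other in HF and 1.06-fold in HB, both HB libraries above both HF libraries, and the mean was 1.46 times as high in HB. The log2 change was 0.54 (SE 0.25, 95% confidence interval -0.02 to 1.11, adjusted p = 0.137 by limma). It lies 0.73 above the median gene. In RPF the groups overlapped, with 158 and 195 RPKM in HF and 194 and 130 in HB, on 279, 939, 227 and 84 reads. The log2 change in RPF was -0.14 (SE 0.32), with 0.18 for a common median and -1.01 for a common sum, not called in either. The ratio of RPF to mRNA was 1.09 and 1.30 in HF and 0.877 and 0.621 in HB, a log2 change of -0.69 (SE 0.56, adjusted p = 0.642 by limma), and -0.44 without HB library 2. In TE, Chdh, Dmgdh and Sardh came to -1.45, -1.66 and -1.51 with a common sum and to -0.32, -0.51 and -0.36 with a common median, and were called under neither. A common sum moved the median gene to -1.16 in RPF and -1.03 in TE.

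Among the ratios chosen after the values were seen was that of the divergent pair, of which neither gene passed a threshold in mRNA. Bhmt2 stood at 1.10 and 1.05 times Dmgdh in HF and at 0.486 and 0.525 times in HB. The libraries of a group agreed closely in this ratio, and it was 2.13-fold higher in HF. In RPF the same ratio was 0.502 and 0.343 in HF and 0.303 and 0.861 in HB, which overlap. Bhmt stood at 12.2 and 7.57 times Bhmt2 in mRNA of HF and at 15.1 and 20.99 times in HB. In RPF that ratio overlapped, with 5.43 and 20.9 in HF and 21.9 and 4.42 in HB. In mRNA its ratio to Dmgdh overlapped, with 13.4 and 7.96 in HF and 7.36 and 11.02 in HB, as did that of Sardh to Dmgdh, with 1.10 and 1.61 in HF and 1.27 and 1.596 in HB. In RPF, Sardh stood at 1.02 and 1.05 times Dmgdh in HF and at 1.31 and 1.14 times in HB, which do not overlap.

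**Figure D4:**
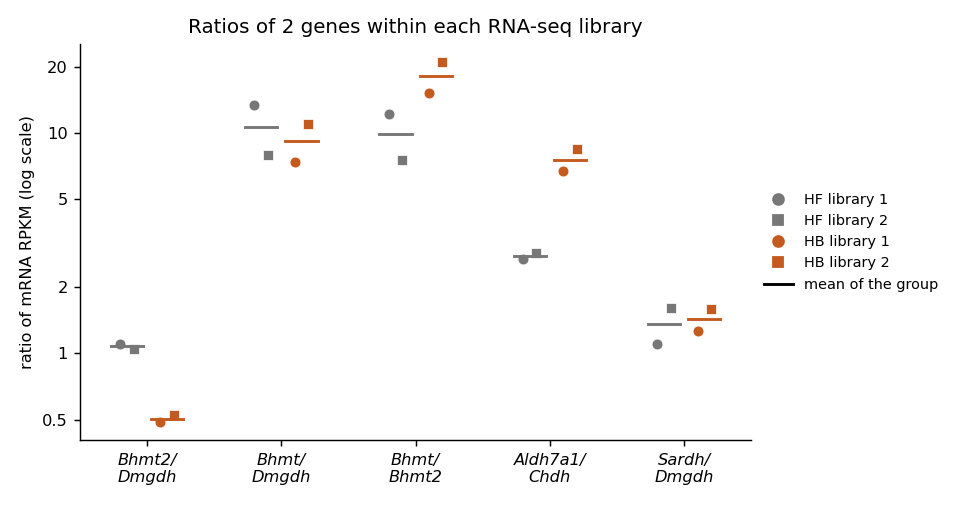
Ratio of the mRNA RPKM of 2 genes within each RNA-seq library on a log axis, with a bar for the mean of the group of 2. Bhmt2 over Dmgdh is near 1 in HF and 0.486 and 0.525 in HB, and Aldh7a1 over Chdh is 2.68 and 2.84 in HF and 6.70 and 8.45 in HB.

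The genes whose mRNA pattern over the 4 libraries came nearest to that of Bhmt, among 4535 genes with a mean of at least 10 RPKM, were 2010003K11Rik, Crat and Saa1. The measure was the distance between centred log2(RPKM + 1) values, which was 0.235, 0.301 and 0.315. Crat, carnitine acetyltransferase of mitochondria and peroxisomes, was 26.2 and 13.5 RPKM in HF and 20.6 and 27.6 in HB. Saa1, an acute-phase protein of the liver, was 91.1 and 49.5 RPKM in HF and 66.4 and 86.7 in HB. In RPF, Crat was 15.3 and 19.2 RPKM in HF and 15.9 and 9.63 in HB, Saa1 was 114 and 26.4 in HF and 6.39 and 81.0 in HB, and 2010003K11Rik was 24.3 and 26.8 in HF and 3.33 and 12.1 in HB. A likeness over 4 libraries of 2 groups is a description.

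Beside the 7 genes, 78 genes in 7 lists cover the steps next to them: transport of choline and betaine, handling of osmolytes, the way between choline and phosphatidylcholine, sarcosine and glycine, electron transfer and flavin supply, the methionine cycle, and aldehyde and lysine enzymes related to ALDH7A1. In mRNA 63 of them were tested, of which 3 were called higher and 2 lower, with a median log2 change of 0.15. In RPF 67 were tested, of which 0 were called higher and 4 lower, with a median of -0.37. In TE 62 were tested, of which 0 were called higher and 2 lower, with a median of -0.54. At an adjusted p under 0.05 with a log2 change beyond 1 in mRNA, 10 were higher and 6 lower. The shares of all tested genes at this threshold were the 5.01% and 12.7% given above, and those for the calls are given with the members.

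For 7 tested transporters of choline and betaine the median change in mRNA was 0.38. In RPF 2 of 9 were called lower, Slc25a48 and Flvcr2, and in TE 1 of 7, Slc25a48. The call of Slc25a48, a mitochondrial choline transporter, rests on 1, 2, 0 and 0 reads, which is under the floor of 3 reads in every library. Flvcr2 had 2 and 11 reads in HF and 0 and 0 in HB. At the adjusted threshold Slc44a2, a choline transporter-like protein, and the amino acid transporter Slc38a2 were lower in mRNA (log2 change -1.002 and -1.03). Of 6 tested osmolyte genes, Akr1b3, aldose reductase, which makes sorbitol, was called higher in mRNA, with 1.65 and 2.05 RPKM in HF and 6.55 and 5.44 in HB (log2 change 1.29, SE 0.25, adjusted p = 0.00815 by limma).

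In the list from choline to phosphatidylcholine, 0 of 11 tested genes were called higher in mRNA and 2 lower, both of them choline kinases, with a median of -0.69 for the list. Chkb fell from 129 and 111 RPKM in HF to 32.5 and 52.7 in HB (log2 change -1.51, SE 0.29, adjusted p = 0.00839 by limma). Chka was 83.8 and 25.8 RPKM in HF and 6.26 and 10.8 in HB, a wide spread in HF, with a log2 change of -2.37 (SE 0.47, adjusted p = 0.00925 by limma). Pemt, which makes phosphatidylcholine by methylating phosphatidylethanolamine, was called lower in TE, with a ratio of RPF to mRNA of 1.12 and 0.777 in HF and 0.359 and 0.0873 in HB (log2 change -2.38, SE 0.91, adjusted p = 0.390 by limma). The last of these rests on 5 footprint reads. Its mRNA was higher in HB at the adjusted threshold, with 180.2 and 233 RPKM in HF and 432 and 447 in HB (log2 change 1.09, SE 0.27, adjusted p = 0.0185 by limma). At the same threshold Pnpla7, a lysophospholipase, was higher (log2 change 1.11), and Gpcpd1, which splits glycerophosphocholine, and the phospholipase Pnpla6 were lower (-1.41 and -1.30).

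Gnmt, which makes sarcosine by methylating glycine and so works in the opposite direction to Sardh, was the gene called in mRNA among 13 tested for sarcosine and glycine. It rose from 517 and 342 RPKM in HF to 1792 and 1016 in HB (log2 change 1.68, SE 0.36, adjusted p = 0.0107 by limma). At the adjusted threshold Gcsh of the glycine cleavage system and Shmt1, which interconverts serine and glycine, were also higher in mRNA (log2 change 1.002 and 1.18). The median of this list was 0.48 in mRNA, 0.03 in RPF and -0.56 in TE. Among 7 genes of electron transfer and flavin supply, 0 were called. They include Etfa, Etfb and Etfdh, which carry the electrons of DMGDH and SARDH, and genes for making and moving flavins. The list had medians of 0.02 in mRNA, -0.03 in RPF and -0.40 in TE. At the adjusted threshold Etfdh, which passes these electrons on to ubiquinone, was higher in mRNA, with 32.5 and 23.1 RPKM in HF and 108 and 56.2 in HB (log2 change 1.47, SE 0.34, adjusted p = 0.0139 by limma). Of the methionine cycle, Ahcy, which hydrolyses S-adenosylhomocysteine, was called lower in RPF, with 89.3 and 92.4 RPKM in HF and 55.1 and 33.3 in HB (log2 change -1.07, SE 0.36, adjusted p = 0.493 by limma), and Gnmt and Pemt, also in this list, as above. Of 9 related aldehyde and lysine enzymes, 0 were called in mRNA or TE, and Dhtkd1 of lysine breakdown was called lower in RPF on 23, 66, 6 and 3 reads. Their medians were 0.49 in mRNA, 0.02 in RPF and -0.90 in TE. Aldh2 and Aldh1a1, broad aldehyde dehydrogenases that passed the adjusted threshold beside Aldh7a1, changed by 1.15 and 1.14 in mRNA (adjusted p = 0.0159 and 0.0163 by limma).

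**Figure D5:**
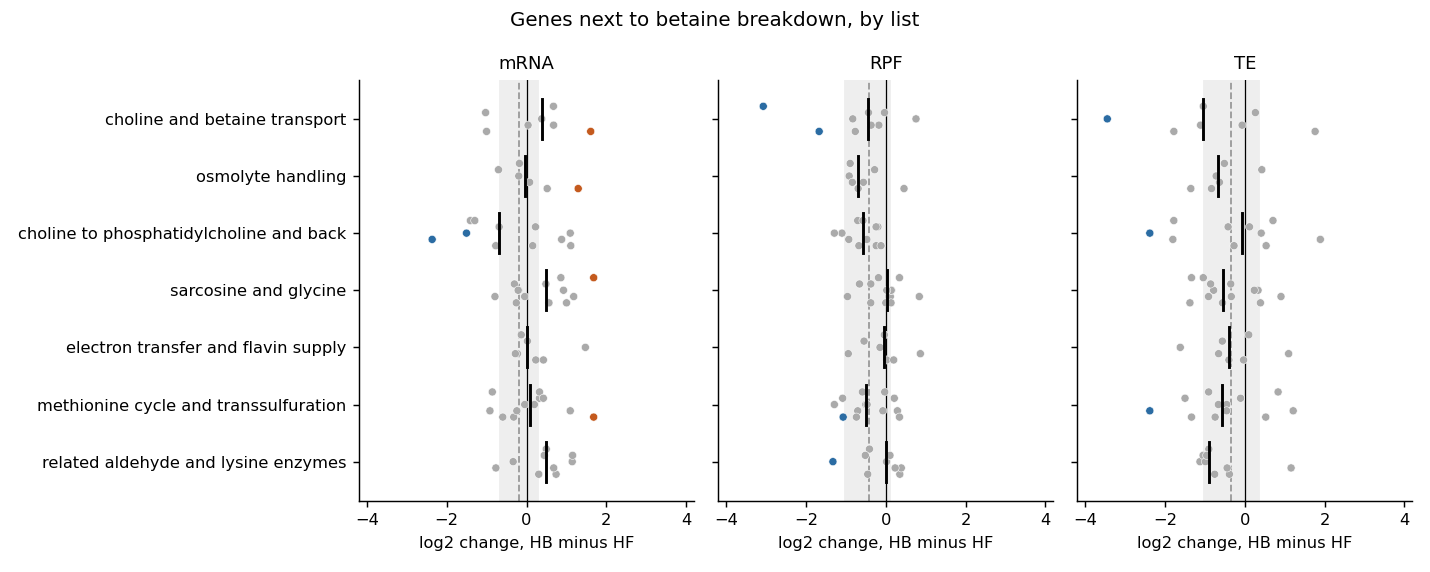
Log2 change, HB minus HF, of each tested gene in the 7 lists next to betaine breakdown (orange called higher, blue called lower, grey not called), with a black bar for the list's median. The dashed line is the median and the grey band the middle 50% of all tested genes, and the points below -3 in RPF and TE are Slc25a48, which had at most 2 footprint reads in a library.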

How the data were processed

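RPKM, 1 column for each library, were deposited by the authors, who aligned reads of either assay against mm10 by FANSe2. Whether RPFs were counted over coding sequence or transcript is not given in the sources used here. The lengths behind the deposited RPKM, found from steps of 1 read, exceed the coding sequence for every member. Whole reads came out for 99.99% of values above 0 in each assay (tolerance 0.003 read). The authors used edgeR, which was not used here.

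Genes with a mean of at least 1 RPKM were fitted with limma 3.58.1 in R 4.3.3 (eBayes with trend, two-sided) on log2(RPKM + 1), with Benjamini-Hochberg adjustment over all of them. TE was fitted on the ratio for same-numbered libraries, while printed ratios carry no added constant. Intervals on reads are exact Poisson intervals (95%) and cover counting error only. Steps were tested on simulated data. Members and gene lists were chosen with earlier results of these data known. Neighbouring genes are named where called, up to 3 per list and measure by smallest p (1 such gene is not reported here), and those past the adjusted threshold in mRNA were added after their values were seen. Alternatives were another pseudocount, filter, scaling and variance trend, the replicate block, each library left out, voom on whole reads, and an interaction model for TE.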

Additional observations from a re-analysis of the deposited data

How the results depend on the processing

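The thresholds called 0 of 7 members in mRNA, RPF and TE, and most alternatives left this count at 0. In mRNA it became 1 higher (Aldh7a1) with libraries shifted to a common median, with the replicate number as a block, with crossed numbers as a block, and with an adjusted p under 0.05. In RPF it became 3 lower (Chdh, Aldh7a1 and Dmgdh) and in TE 1 lower (Aldh7a1) with RPKM scaled to a common sum. The replicate numbers do not pair the libraries: deviations from the group means correlated at -0.104 in mRNA and -0.0138 in RPF between same-numbered HF and HB libraries. Between same-numbered RNA-seq and Ribo-seq libraries they correlated at -0.0024 in HF and -0.077 in HB. The ratios in TE are nevertheless taken between same-numbered libraries. The replicate block raised the calls over all genes in mRNA from 246 higher and 701 lower to 498 and 1229, and crossed numbers gave 474 and 1303.

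Of 308 changes of single members under the alternatives, 280 kept direction and side of the threshold, 8 gained a call and 20 changed sign. Many of them could not change sign. Another filter or variance trend, a block, the interaction model, crossed numbers and an adjusted p keep the log2 change by construction. With a common median Slc6a12 in mRNA came to 0.18, and Bhmt, Bhmt2 and Sardh in RPF to 0.12, 0.24 and 0.18. With a common sum Slc6a12 came to -0.31 in RPF and -0.18 in TE, and Bhmt2 to -0.27 in TE. With protein-coding reads Bhmt2 in RPF came to 0.037. Leaving out each library gave -0.37 to 0.87 for Bhmt and -0.25 to 0.061 for Slc6a12 in mRNA. In RPF it gave -1.03 to 0.62 for Bhmt, -0.65 to 0.47 for Bhmt2 and -0.43 to 0.14 for Sardh, and in TE -1.91 to 1.00 for Bhmt and -0.16 to 1.25 for Bhmt2. Where this leaves a lone library, it is assumed to vary like the other group. The cause was not tested.

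Scaling moves all genes. A common median changed the share of higher among called genes from 26.0% to 65.0% in mRNA, from 16.8% to 45.3% in RPF and from 24.5% to 50.6% in TE, and a common sum lowered it to 1.52% in RPF and 3.06% in TE. Depth limits Slc6a12 most, at 9 to 41 footprint reads. Crossed numbers, the crossed block and scaling to protein-coding reads were chosen after seeing the data.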
